A study of Mus musculus with 93 samples.

Results

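The mesenchymal transition genes are 10 mouse genes that are read as a set when cells leave an epithelium: the transcription factors Snai1, Snai2, Twist1, Twist2, Zeb1 and Zeb2, the cadherins Cdh2 and Cdh11, the filament protein gene Vim and the matrix gene Fn1. They were taken as a named list from the 24514 genes of the count table, and all 10 were present in it. Their levels were compared between GFP+ and RFP+ cardiac progenitors, in vivo and in vitro. All embryos and the embryonic stem cell line carried Hcn4-GFP, Tbx1-Cre and Ai9, so the groups differ by sort gate and source and not by genotype. GFP+ cells express the Hcn4-GFP reporter of the first heart field (FHF), and RFP+ cells carry the permanent Ai9 label left by Tbx1-Cre in the second heart field (SHF) lineage, so RFP does not report whether Tbx1 is still on.

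The 4 groups were 5 in vivo GFP+ libraries, 4 in vivo RFP+ libraries, 38 in vitro GFP+ libraries and 46 in vitro RFP+ libraries. Embryos were at E7.75 by the collection protocol and at E8.5 by the sample titles, and spheroids of the single stem cell line were at day 5.5 of differentiation. Each library was made from 10 sorted cells in one well. Nothing in the labels ties a well to an embryo or a differentiation, so p-values measure the spread between wells, which may in part be technical. Because each well is a pool, fewer cells with a transcript and less transcript per cell cannot be told apart.

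In an epithelial-mesenchymal transition, cells loosen their E-cadherin junctions, change their cytoskeleton and matrix, and become motile. Snail, Twist and Zeb proteins bind E-box sequences and repress epithelial genes such as Cdh1, while vimentin, fibronectin and N-cadherin are the usual readouts of the mesenchymal state. In the early embryo this program is known from gastrulation, when the mesoderm that will form the heart leaves the primitive streak. The heart muscle that forms afterwards is an epithelial-like tissue that is held together by N-cadherin.

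Counts on genes ran from 712732 to 2525460 reads in the in vivo GFP+ libraries and from 1246546 to 1479957 in the in vivo RFP+ libraries. In vitro they ran from 6288 to 4371849 and from 445071 to 5658882. The in vivo GFP+ libraries detected fewer genes (6189 to 8302) than the in vivo RFP+ libraries (10263 to 13052). One in vitro GFP+ library, from well C9, had only 6288 reads, and the 0 values of Fn1, Cdh2, Cdh11, Twist1, Zeb1 and Zeb2 among in vitro GFP+ libraries all come from it. Neighbouring RFP+ spheroid wells (columns 3 and 4) were almost the same library in 7 plate rows, with r between 0.976 and 0.994 for log2 CPM, where CPM is counts per 1000000 reads. They differed by more than sampling noise and were kept apart, but whether both wells of a pair hold the same cells cannot be told. Counts of libraries, SDs, permutation tests and correlations therefore use 46 in vitro RFP+ libraries, which would be 39 with these pairs summed. In vitro RFP+ cells filled plate columns 1 to 6 and GFP+ cells columns 7 to 11, so plate column and population cannot be told apart in vitro. The reporters' own genes followed the gates at low level. In vivo, mean Hcn4 was 14.9 ± 16.7 CPM over the GFP+ libraries (SD, n = 5) against 0.36 ± 0.72 CPM over the RFP+ libraries (SD, n = 4), and Tbx1 averaged 3.94 ± 3.53 CPM over the RFP+ libraries with no read in a GFP+ library.

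The promoters of Snai1 and Twist1 are shown because both factor genes were higher in RFP+ than in GFP+ spheroid cells and because Snail, Twist and Zeb proteins are themselves E-box binders. Each sequence is the 250 bases before the RefSeq transcription start on GRCm38.p6, written 5′ to 3′ on the strand of the gene, and capitals mark any CANNTG E-box, whose letters read the same on both strands apart from the central bases. The windows lie at chr2:167537945-167538194 (Snai1) and chr12:33957421-33957670 (Twist1), both on the plus strand.
Snai1: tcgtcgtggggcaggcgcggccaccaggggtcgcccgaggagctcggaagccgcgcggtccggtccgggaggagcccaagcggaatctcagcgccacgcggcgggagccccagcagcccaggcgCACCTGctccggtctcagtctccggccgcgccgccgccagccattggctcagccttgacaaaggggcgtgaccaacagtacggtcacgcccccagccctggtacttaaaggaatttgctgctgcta
Twist1: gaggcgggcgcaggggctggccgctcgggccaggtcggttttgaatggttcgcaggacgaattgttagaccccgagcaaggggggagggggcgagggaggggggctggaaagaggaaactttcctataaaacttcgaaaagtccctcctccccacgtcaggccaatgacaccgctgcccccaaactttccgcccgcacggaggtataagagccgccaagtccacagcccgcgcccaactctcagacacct
The Snai1 window holds 1 E-box, CACCTG, whose first base is at -126 from the start. This is the form bound by Snail and Zeb zinc fingers. The Twist1 window holds no CANNTG. Zeb2 was also called higher in RFP+ spheroid cells, and its windows, not shown, hold no CANNTG either. Over 32851 mouse promoters of the same length, 66.2% hold a CANNTG and 17.2% hold CACCTG or CAGGTG, which are the same site read on opposite strands and a subset of CANNTG.

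A gene counts as called when its adjusted p-value (Benjamini-Hochberg) was under 0.1 in edgeR's quasi-likelihood test over all genes that passed a filter on low counts, and SE is the standard error of a log2 fold change. In vivo, 10.1% of 8503 genes tested were called between RFP+ and GFP+ cells. Of the 10 members, 8 passed the filter and 2 were called: Cdh11 was higher in RFP+ cells, as were 6.21% of genes, and Cdh2 was higher in GFP+ cells, as were 3.88%. In vitro, 77.9% of 9940 genes were called, and all 9 members tested were called, so a call alone separates the members little from other genes there. By direction, 37.8% of genes were called higher in RFP+ cells and 40.1% higher in GFP+ cells, against 7 members higher in RFP+ cells (Fn1, Cdh2, Cdh11, Snai1, Twist1, Zeb1 and Zeb2) and 2 higher in GFP+ cells (Vim and Snai2). The median log2 fold change of the members that were tested, RFP+ over GFP+, was 1.21 in vitro, where the median of all genes was -0.02, and 0.20 in vivo, where the median of all genes was 0.09. Members that passed a filter on counts are a selected set, so these medians only describe them.

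**Figure D1:**
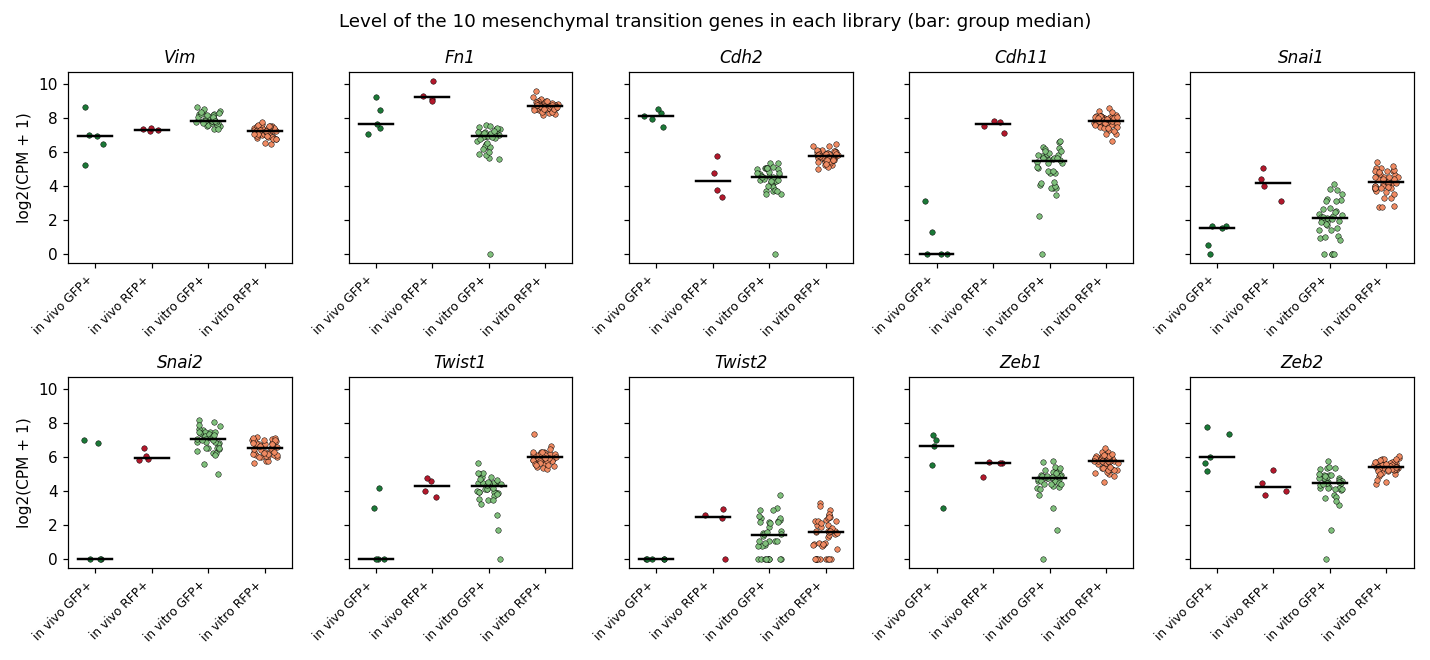
Level of each of the 10 genes in every library, as log2(CPM + 1) on the y axis, for the 4 groups on the x axis; each point is one library (5, 4, 38 and 46) and each bar is the group median. In vivo, Cdh2, Cdh11 and Snai1 separate the populations without overlap, as did 17.3% of genes tested (Snai1 was not among these); in vitro, Fn1 does, as did 2.01% of genes tested.

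Snai1 (chr2:167538195-167542814, plus strand of GRCm38, as for the loci given for the other genes) encodes Snail, the zinc finger repressor that is switched on in the primitive streak. In vivo, the GFP+ libraries A12, B12, C12, D12 and E12 were at 2.15, 0.43, 0, 1.87 and 2.14 CPM, and the RFP+ libraries F12, G11, G12 and H11 were at 14.6, 32.3, 7.60 and 20.1 CPM. Every RFP+ library was above every GFP+ library. Of the genes tested by edgeR in vivo, which leave out Snai1, 17.3% had ranges that did not overlap. The means were 1.32 ± 1.02 CPM (SD, n = 5) and 18.6 ± 10.5 CPM (SD, n = 4), and the two-sided exact permutation test of log2 CPM gave p = 0.0159, the smallest p that 126 splits allow in this test. The GFP+ side rests on 9 reads in all, so the ratio of pooled counts, 15.2, has an exact 95% interval of 7.69 to 34.1 from counting error alone. Snai1 fell under the edgeR filter in vivo. In vitro, Snai1 ran from 0 to 16.0 CPM (median 3.27) in GFP+ cells and from 5.69 to 41.8 CPM (median 17.4) in RFP+ cells. The ranges overlapped, with a log2 fold change of 2.10 (SE 0.21, adjusted p = 4.32e-16 in edgeR).

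Snai2 (chr16:14705852-14709385, plus strand) encodes Slug, the second Snail family member, known from neural crest and from the endocardial cells that fill the heart cushions. In vivo it was split among the GFP+ libraries: B12 and C12 were at 115 and 129 CPM, and A12, D12 and E12 had no reads. The 4 RFP+ libraries were at 58.3, 92.1, 54.9 and 65.2 CPM, between these extremes. The log2 fold change of 0.40 had an SE of 1.67 and was not called (adjusted p = 0.975 in edgeR). It was 1.01 without B12 and 1.21 without C12. With any 1 in vivo library left out it ran from 0.07 to 1.21 and was not called. The same 2 GFP+ libraries, B12 and C12, had the highest summed level of the 7 endothelial markers among GFP+ libraries, 75.3 and 89.3 CPM against 0, 16.8 and 0 CPM in A12, D12 and E12. In the RFP+ libraries F12, G11, G12 and H11 the sum of these markers was 139, 115, 65.9 and 261 CPM. Of these markers Cdh5, Pecam1, Tie1 and Emcn were at 0 in all 5 GFP+ libraries, and the part of endothelial cells in the Snai2 reads was not tested. In vitro, Snai2 was in every library and was higher in GFP+ cells, from 31.0 to 295 CPM (median 133), than in RFP+ cells, from 48.9 to 143 CPM (median 91.6). Its log2 fold change was -0.63 (SE 0.10, adjusted p = 9.96e-08 in edgeR). Snai2 was therefore called in the direction opposite to Snai1 in spheroids.

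The Snail pair also differed in level. Per kilobase of exon, Snai2 was above Snai1 in each of the 38 in vitro GFP+ libraries and 46 in vitro RFP+ libraries. The ratio of mean CPM per kilobase, Snai2 over Snai1, was 26.6 in GFP+ cells and 3.90 in RFP+ cells. In vivo it was above Snai1 in 4 of 4 RFP+ libraries (ratio of means 2.91) and in 2 of 5 GFP+ libraries.

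Twist1 (chr12:33957671-33959829, plus strand) encodes a bHLH factor of head mesenchyme and neural crest that pairs with E proteins. In vivo it had no reads in A12, B12 and C12, was at 7.0 and 17.1 CPM in D12 and E12, and was at 15.3, 23.2, 11.8 and 26.5 CPM in the RFP+ libraries F12, G11, G12 and H11. The GFP+ library E12 lay inside the RFP+ range. The log2 fold change of 1.91 (SE 1.57) was not called (adjusted p = 0.717 in edgeR), while the exact permutation test of log2 CPM gave p = 0.0476. Without E12 the log2 fold change was 3.29. In vitro, Twist1 ran from 0 to 49.0 CPM (median 18.3) in GFP+ cells and from 38.2 to 161 CPM (median 61.9) in RFP+ cells. It was 3.43-fold higher in RFP+ cells by mean, with a log2 fold change of 1.69 (SE 0.11, adjusted p = 1.6e-25 in edgeR).

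Twist2 (chr1:91801461-91848028, plus strand), the close paralogue of Twist1, was at the edge of detection. In vivo, 5 of 5 GFP+ libraries held no read of it, and levels were 6.56, 4.92, 0 and 4.30 CPM in the RFP+ libraries F12, G11, G12 and H11. The RFP+ mean was at least 1.53-fold higher than 3 reads per GFP+ library would give, and the exact permutation p was 0.0952. In vitro, 28 of 38 GFP+ and 36 of 46 RFP+ libraries had at least 1 read, with means of 2.34 ± 2.61 CPM (SD, n = 38) and 2.28 ± 2.14 CPM (SD, n = 46) and a permutation p of 0.841. No difference between the spheroid populations was detectable at this depth. Of the exon bases of Twist2, 46.5% overlap Gm29100 on the opposite strand, and as no source used here states whether counting used strand, reads of these genes cannot be told apart. Twist1 was above Twist2 per kilobase in every library that held reads of Twist1.

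Zeb1 (chr18:5591860-5775467, plus strand) and Zeb2 (chr2:44983632-45117395, minus strand) encode large zinc finger homeodomain proteins that bind paired E-boxes and recruit CtBP corepressors. In vivo, Zeb1 was at 154, 6.92, 100, 126 and 46.0 CPM in the GFP+ libraries A12 to E12 and at 27.0, 50.6, 49.0 and 48.7 CPM in the RFP+ libraries. Zeb2 was at 165, 49.3, 217, 34.6 and 63.1 CPM in the GFP+ libraries and at 21.1, 14.8, 12.7 and 37.3 CPM in the RFP+ libraries. For both genes the in vivo GFP+ mean was the highest of the 4 groups, but the ranges overlapped. The log2 fold changes were -1.02 for Zeb1 (SE 0.93, adjusted p = 0.753) and -2.36 for Zeb2 (SE 0.92, adjusted p = 0.189), neither called by edgeR. DESeq2 called Zeb2 (log2 fold change -2.53, adjusted p = 0.0139), and the exact permutation p of Zeb2 was 0.0317 and of Zeb1 0.730.

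In vitro the order was the other way for both Zeb genes. Zeb1 ran from 0 to 54.3 CPM (median 25.7) in GFP+ cells and from 22.1 to 91.0 CPM (median 53.7) in RFP+ cells, with a log2 fold change of 0.96 (SE 0.11, adjusted p = 4.28e-13 in edgeR). Zeb2 ran from 0 to 54.0 CPM (median 21.6) and from 20.2 to 66.1 CPM (median 42.0), with a log2 fold change of 0.85 (SE 0.12, adjusted p = 2.31e-10 in edgeR). A small share of Zeb2 exon bases, 3.27%, overlaps the antisense gene Zeb2os. Zeb1 was above Zeb2 per kilobase in all 46 in vitro RFP+ libraries, in 33 of 38 in vitro GFP+ libraries and in all 4 in vivo RFP+ libraries, and in 3 of 5 in vivo GFP+ libraries.

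Cdh2 (chr18:16588877-16809246, minus strand) encodes N-cadherin, which replaces E-cadherin in mesoderm and joins heart muscle cells end to end. In vivo, the GFP+ libraries A12 to E12 were at 272, 242, 175, 306 and 369 CPM and the RFP+ libraries F12, G11, G12 and H11 were at 53.2, 9.14, 12.7 and 26.5 CPM. The groups did not overlap, as was the case for 17.3% of all genes tested in vivo. Cdh2 was 10.8-fold higher in GFP+ cells by mean, with a log2 fold change of -3.46 (SE 0.61, adjusted p = 0.00422 in edgeR). With any 1 in vivo library left out it ran from -4.11 (without F12) to -3.16. The summed level of 8 cardiomyocyte markers was also higher in GFP+ libraries, from 9600 to 28919 CPM against 492 to 1304 CPM in RFP+ libraries. All 8 had reads in both groups. Among GFP+ libraries both the sum and Cdh2 were lowest in C12, while the sum was highest in B12 and Cdh2 in E12. The RFP+ libraries F12 and G11 had sums of 1304 and 1286 CPM, with Cdh2 at 53.2 and 9.14 CPM. The part of these cells in the Cdh2 level was not tested. In vitro, Cdh2 was at a lower level and in the other order, from 0 to 39.3 CPM (median 21.9) in GFP+ cells and from 31.3 to 87.1 CPM (median 54.0) in RFP+ cells. There the log2 fold change was 1.21 (SE 0.10, adjusted p = 3.02e-21 in edgeR), and the cardiomyocyte marker sum had a median of 36.4 CPM in GFP+ and 23.7 CPM in RFP+ libraries.

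Cdh11 (chr8:102632095-102785642, minus strand) encodes cadherin 11, the cadherin of loose mesenchyme. In vivo it was nearly absent from GFP+ cells: A12, C12 and E12 had no reads, D12 was at 1.40 CPM and B12 at 7.79 CPM. The RFP+ libraries were at 185, 212, 137 and 220 CPM. The groups did not overlap, as for 17.3% of all genes tested in vivo, and the log2 fold change was 6.42 (SE 1.25, adjusted p = 0.00832 in edgeR). The GFP+ side rests on 21 reads in all, and the ratio of pooled counts, 64.7, had an exact 95% interval of 42.1 to 105 from counting error alone. With any 1 in vivo library left out, the log2 fold change ran from 6.12 to 8.32, highest without B12. In vitro, Cdh11 ran from 0 to 100.3 CPM (median 42.4) in GFP+ cells and from 100.2 to 381 CPM (median 221) in RFP+ cells. It was 5.44-fold higher in RFP+ cells by mean, with a log2 fold change of 2.38 (SE 0.13, adjusted p = 9.22e-31 in edgeR).

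The pair of cadherins therefore had a different order in each population of the embryo. Per kilobase of exon, Cdh2 was above Cdh11 in 5 of 5 in vivo GFP+ libraries, and Cdh11 was above Cdh2 in 4 of 4 in vivo RFP+ libraries. The ratio of mean CPM per kilobase was 164 in the first (884 without B12, and 119.6 to 150.04 without any other library). It was 6.73 in the second (10.7 without F12, and 5.31 to 6.45 without any other library). Cdh11 was above Cdh2 in 46 of 46 in vitro RFP+ libraries (ratio 3.81) and in 29 of 38 in vitro GFP+ libraries (ratio 1.71), with 8 GFP+ libraries the other way. No spheroid library reached the lowest in vivo GFP+ level of Cdh2, 175 CPM, the highest Cdh2 level in vitro being 87.1 CPM.

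**Figure D2:**
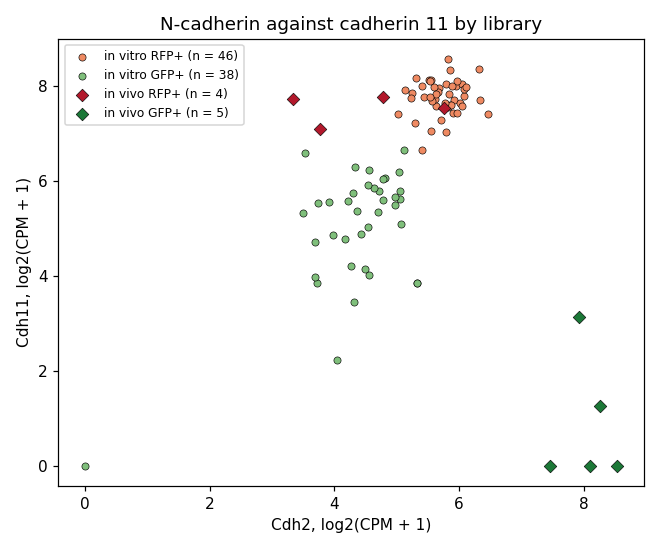
Cdh2 on the x axis against Cdh11 on the y axis, both as log2(CPM + 1), with one point per library and diamonds for embryo libraries. The 5 in vivo GFP+ libraries lie at the lower right, apart from the in vivo RFP+ libraries and from both spheroid populations; the point at the origin is the library of 6288 reads.

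Vim (chr2:13573927-13582826, plus strand) encodes vimentin, the intermediate filament of mesenchymal cells. In vivo, the GFP+ libraries were at 403, 125, 88.0, 122 and 36.4 CPM and the RFP+ libraries at 146, 165, 160 and 155 CPM. The 4 RFP+ libraries agreed closely and lay inside the GFP+ range, and the log2 fold change was 0.00 to 2 decimals (SE 0.60, adjusted p = 0.998 in edgeR). The GFP+ spread rests in part on A12, without which the log2 fold change was 0.71. With any 1 in vivo library left out it ran from -0.26 to 0.71 and was not called. In vitro, Vim was 1.69-fold higher in GFP+ cells by mean, from 161 to 402 CPM (median 228) against 87.8 to 211 CPM (median 149) in RFP+ cells. Its log2 fold change was -0.77 (SE 0.06, adjusted p = 3.25e-20 in edgeR), opposite in sign to that of Fn1.

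Fn1 (chr1:71585520-71653200, minus strand) encodes fibronectin, the matrix protein on which early mesoderm and heart precursors migrate. In vivo, it was at 347, 169, 598, 198 and 132 CPM in the GFP+ libraries A12 to E12 and at 561, 611, 501 and 1169 CPM in the RFP+ libraries. The GFP+ library C12 lay inside the RFP+ range, and the log2 fold change of 1.24 (SE 0.45) was not called (adjusted p = 0.137 in edgeR). Without C12 it was 1.73 and called (adjusted p = 0.0141). Over the 9 fits with 1 in vivo library left out it ran from 0.91 to 1.73, with adjusted p from 0.0141 to 0.519 in edgeR. The exact permutation p over all 9 libraries was 0.0476. In vitro, Fn1 ran from 0 to 193 CPM (median 120.2) in GFP+ cells and from 281 to 765 CPM (median 421) in RFP+ cells. No GFP+ library reached the lowest RFP+ library, which was so for 2.01% of all genes tested in vitro. Fn1 was 3.71-fold higher in RFP+ cells by mean, with a log2 fold change of 1.82 (SE 0.08, adjusted p = 2.01e-36 in edgeR).

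Permutation tests of log2 CPM were run for the 10 members one by one in each source. In vitro the p was 2.0e-05 for 8 members, which is the lowest value a two-sided test with 100000 resamples reaches, and 4.0e-05 for Snai2, with Twist2 the exception. The sign of the difference in log2 CPM was that of the edgeR fold change for each member that edgeR called.

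Set side by side, 8 members were tested in both sources and 2 were called in both. Cdh11 was called with the same direction in both, as were 5.29% of the 8182 genes tested in both. Cdh2 was called with opposite directions, as were 2.62% of those genes. The difference between the log2 fold changes, in vitro minus in vivo, was tested over its combined standard error with 7 degrees of freedom, and 5.26% of genes were called, 2.1% with the in vitro value higher and 3.15% with it lower. Among the 8 members tested only Cdh2 was called, with the in vitro value higher and a difference of 4.67 (SE 0.62, adjusted p = 0.0180). The difference was 3.20 for Zeb2 (SE 0.93, adjusted p = 0.158), 1.99 for Zeb1 (adjusted p = 0.483) and -4.04 for Cdh11 (SE 1.26, adjusted p = 0.198). These 3 were not called over all libraries, while without B12 the Cdh11 difference was -5.94 and called (adjusted p = 0.0525). Over the 9 fits with 1 in vivo library left out, the Cdh11 difference ran from -5.94 to -3.74, with adjusted p from 0.0525 to 0.471.

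**Figure D3:**
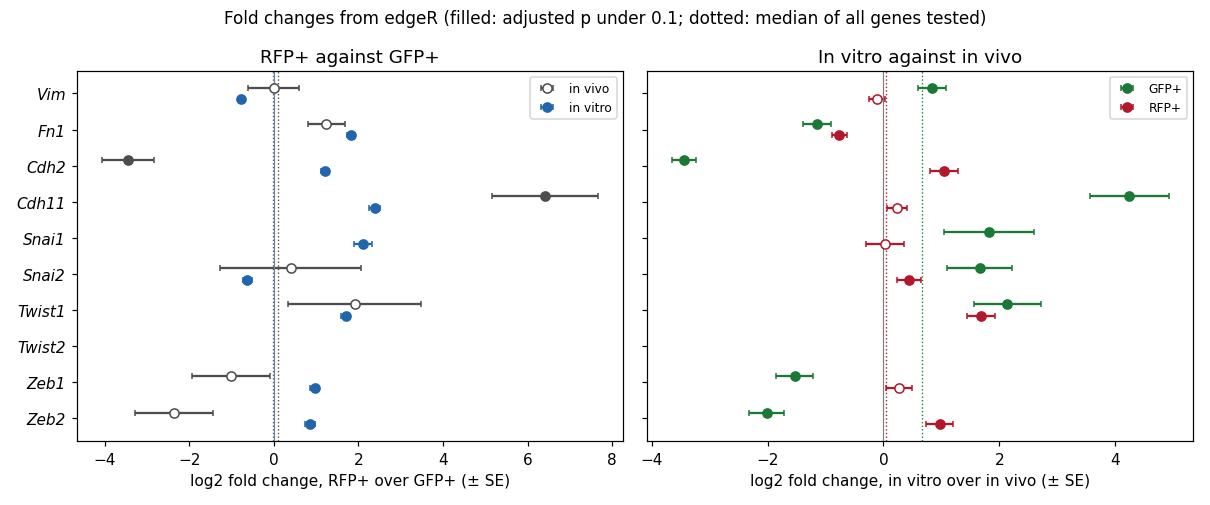
Log2 fold changes of the members with standard errors from edgeR, RFP+ over GFP+ cells in each source (left) and in vitro over in vivo cells in each population (right); filled points were called at an adjusted p-value under 0.1, and dotted lines are medians of all genes tested. Cdh2 is the member whose left-hand values lie on opposite sides of 0 with both called; Twist2 fell under the filter on low counts.

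GFP+ cells of the spheroids were then compared with GFP+ cells of the embryo. The embryo wells lay in plate column 12 and the spheroid wells in columns 7 to 11, and their stages differed too. Effects of source, stage and column are therefore mixed in this comparison. The cardiomyocyte marker sum also differed, with a median of 15982 CPM in vivo and 36.4 CPM in vitro. Its part in the calls, that of Cdh2 included, was not tested. Over 11822 genes tested, 68% were called, 48.3% higher in vitro and 19.7% higher in vivo, and the median log2 fold change of all genes was 0.67. With another scaling (RLE size factors) that median was 0.22, and the split of calls moved from 5710 higher and 2326 lower in vitro to 4687 and 3473. Fold changes of this comparison are therefore best read against the median. All 9 members tested were called. Cdh2, Zeb2, Zeb1 and Fn1 were lower in vitro, with log2 fold changes of -3.45, -2.02, -1.53 and -1.14 (adjusted p = 2.67e-20, 1.78e-07, 5.29e-05 and 7.16e-05 in edgeR). Cdh2 was 12.5-fold lower in spheroid GFP+ cells by mean and its ranges did not overlap, as for 6.08% of genes. Cdh11 was higher in vitro by a log2 fold change of 4.24 (SE 0.68, adjusted p = 5.21e-07). With any 1 GFP+ embryo library left out it ran from 3.94 to 6.2, highest without B12.

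Twist1 was higher in vitro by 2.14 (adjusted p = 0.0013), and by 1.77 to 3.23 with any 1 GFP+ embryo library left out, highest without E12. Snai1 was higher by 1.82 (adjusted p = 0.0394) and Snai2 by 1.66 (adjusted p = 0.00879). The Snai2 value was 2.31 without B12 and 2.28 without C12, and ran from 1.30 to 2.31 over all such fits. Vim was higher by 0.84 (adjusted p = 0.00227), which is 0.17 above the median of all genes. Without A12 it was higher by 1.48, or 0.77 above the median of 0.71, and without any other GFP+ embryo library it lay between -0.15 and -0.01 from the median. With RLE size factors Vim and Snai1 were no longer called (adjusted p = 0.115 and 0.112).

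RFP+ cells were compared between the sources in the same way, and source, stage and plate column again cannot be told apart. The cardiomyocyte marker sum differed here too (median 1292 CPM in vivo and 23.7 CPM in vitro), and its part in the calls was not tested. Over 11147 genes, 42.6% were called, 22.5% higher in vitro and 20.1% higher in vivo, and the median of all log2 fold changes was 0.04. Of 9 members tested, 5 were called. Twist1 was 3.31-fold higher in spheroid RFP+ cells by mean (log2 fold change 1.69, adjusted p = 6.82e-08 in edgeR), and its ranges did not overlap, as for 4.55% of genes. Cdh2 was higher in vitro by 1.05 (adjusted p = 0.00035), Zeb2 by 0.97 (adjusted p = 0.000614) and Snai2 by 0.45 (adjusted p = 0.0852). With any 1 RFP+ embryo library left out, the Cdh2 value ran from 0.76 to 1.70, highest without F12. Fn1 was lower by 0.76 on the log2 scale (log2 fold change -0.76, adjusted p = 5.67e-06). Cdh11, Snai1, Vim and Zeb1 were not called, with log2 fold changes of 0.23, 0.02, -0.11 and 0.27. The Snai2 call was lost without F12, G12 or H11 and under most other settings.

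Per kilobase, the order of the members differed among the populations. In in vivo GFP+ cells Cdh2 led (33.8 ± 8.95 CPM per kilobase, SD, n = 5). Vim, Fn1 and Snai2 followed at 32.6 ± 30.2, 24.7 ± 16.4 and 24.1 ± 33.1, each within its own SD of the Cdh2 mean. In in vivo RFP+ cells Fn1 led (60.8 ± 26.5, SD, n = 4), ahead of Snai2 and Vim at 33.5 and 33.0, which did not differ beyond their spread, and Cdh11 at 21.2. In spheroid GFP+ cells Snai2 (68.8 ± 28.6, SD, n = 38) and Vim (52.4 ± 12.0) led, with Twist1 and Fn1 next at 11.4 and 9.78. In spheroid RFP+ cells Snai2 (46.2 ± 12.8, SD, n = 46), Twist1 (39.0 ± 12.0), Fn1 (36.3 ± 7.23) and Vim (31.0 ± 6.06) each lay within the spread of the next. Cdh2 stood first of 10 only in in vivo GFP+ cells, and it was sixth or lower in the 3 other populations by these means, with no test between genes.

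Among wells of the spheroids, correlations between members had a higher median in GFP+ than in RFP+ cells, given as a description over libraries of at least 100000 reads. Over 37 GFP+ libraries the 36 pairs of members had Pearson's r from -0.05 to 0.77 (median 0.31). The highest values were 0.77 for Cdh11 with Twist1, 0.70 for Snai2 with Twist1 and 0.64 for Cdh11 with Snai2. Over 46 RFP+ libraries r ran from -0.35 to 0.47 (median 0.05), and Fn1 with Twist1 was highest. Snai1 had no r above 0.24 in GFP+ wells. It also had few reads there, a median of 5.5 over all 38 GFP+ libraries and no read in 3 of these 37. The part of counting error in its low r was not tested. Wells of one population share a plate, a sort and a protocol. The members' r with the log2 of the total count lay between -0.01 and 0.23 in GFP+ wells and between -0.19 and 0.05 in RFP+ wells. Their r with the number of detected genes lay between 0.07 and 0.34 in GFP+ wells and between -0.28 and 0.02 in RFP+ wells. No median over pairs of other genes is given for comparison.

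**Figure D4:**
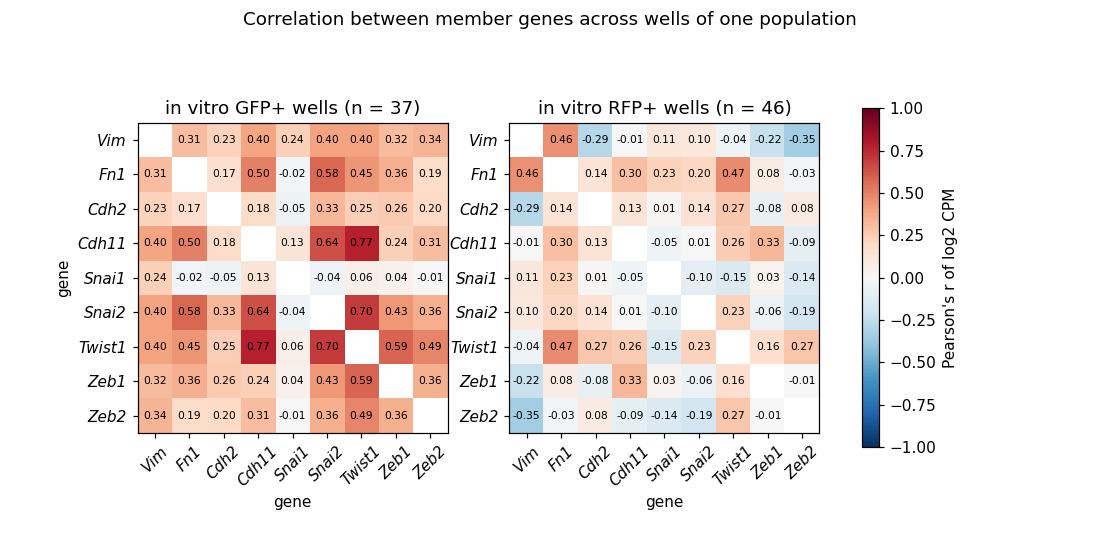
Pearson's r of log2 CPM between members (both axes) across in vitro GFP+ wells (left, n = 37) and in vitro RFP+ wells (right, n = 46), from blue (-1) to red (1). Twist1, Cdh11 and Snai2 form the darkest block in GFP+ wells, and the same pairs are near 0.26, 0.23 and 0.01 in RFP+ wells.

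Over 83 spheroid libraries, with each population centred on its own mean, the genes most like each member were searched among 9939 others. Twist1 was most like Gnas (r = 0.75), which encodes a stimulatory G protein subunit, then Cdh11 (0.67) and Prtg (0.62), which encodes protogenin. Cdh11 was most like Twist1, followed by Gnas and Nrep at 0.64 each. Fn1 was most like Hmga2 (0.58), which encodes a chromatin protein of early embryos, and the mitotic genes Ccna2 (0.57) and Birc5 (0.54). Snai2 was most like Hmgn2 (0.65), Dpysl2 (0.61) and Id2 (0.61). Zeb1 was most like Plagl2 (0.56), Zeb2 most like Rdx (0.51), Vim most like Gng12 (0.48), Cdh2 most like Fzd2 (0.45) and Snai1 most like Ciao1 (0.40).

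Epithelial genes, which this program is known to switch off, were read from a list of 25. In vitro, 21 were tested and all 21 were called higher in GFP+ cells, where 40.1% of all genes were, and their median was -2.26 on the log2 scale. Cdh1, which encodes E-cadherin, averaged 92.3 ± 33.5 CPM over the GFP+ libraries (SD, n = 38) against 35 ± 16.7 CPM over the RFP+ libraries (SD, n = 46). Krt8 and Krt18, the keratins of simple epithelia, had log2 fold changes of -2.78 and -3.03, and Epcam of -2.13. In the in vivo GFP+ libraries, 17 of the 25 genes had no reads, Cdh1, Epcam and Grhl2 among them, while all 25 had reads in in vivo RFP+ libraries, where Cdh1 was at 35.7 ± 41.1 CPM (SD, n = 4). In vivo GFP+ libraries also detected fewer genes of any kind (6189 to 8302) than in vivo RFP+ libraries (10263 to 13052). The share of all genes with this pattern was not computed. The in vivo calls turned on the filter on low counts. With the filter, 7 genes were tested and none was called higher in RFP+ cells, where 6.21% of all genes were, and 1 was called higher in GFP+ cells, where 3.88% were, Krt8 at -1.41 (adjusted p = 0.0700 in edgeR). DESeq2, which was run without that filter, called 13 of the 22 genes with an adjusted p higher in RFP+ cells, as it did 12.6% of all genes, with adjusted p = 0.000103 for both Cdh1 and Epcam and 8.36e-05 for Grhl2, and 1, Krt8, higher in GFP+ cells, as it did 5.48%. In edgeR without the filter, 15 of 25 were called higher in RFP+ cells, as were 10.8% of all genes, and 0 higher in GFP+ cells, as were 2.4%. Of 7 endoderm markers, Cldn6 is also on the epithelial list and makes up most of their summed level in in vivo RFP+ cells. Cldn6 averaged 254.5 ± 194.7 CPM over the in vivo RFP+ libraries (SD, n = 4), and Sox17 was next at 3.14 ± 5.80 CPM. The endoderm marker sum is therefore not a reading apart from the epithelial genes. It was 474, 220.0, 345 and 8.60 CPM in F12, G11, G12 and H11 and 1.08, 0, 0, 21.5 and 0 CPM in the GFP+ libraries A12 to E12, and the epithelial sum of the RFP+ libraries was likewise lowest in H11 (390.4 CPM against 973 to 1736 CPM). Of the endoderm markers Sox17, Foxa1, Foxa2, Ttr, Afp and Cldn6 were at 0 in all GFP+ libraries, and Afp was also at 0 in RFP+ libraries. The part of endoderm cells in the in vivo epithelial levels was not tested. The summed level of 6 pluripotency markers also moved with the spheroid populations, from 73.8 to 1668 CPM (median 200.2) in GFP+ and from 5.28 to 554 CPM (median 43.3) in RFP+ libraries, with all 6 having reads in both. Their part in the epithelial and member differences was not tested. Across the 37 GFP+ wells the epithelial sum had r of -0.49 with Fn1, -0.48 with Snai2, -0.40 with Zeb2, -0.39 with Cdh2 and 0.39 with Snai1. Across the 46 RFP+ wells these values were -0.48, -0.09, -0.13, -0.24 and -0.35, so that of Snai1 changed sign. Krt18 and Krt8, with means of 2148 and 1001 CPM in spheroid GFP+ cells, make up much of the sum there. These r only describe wells that share a plate.

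Of 9 other cadherins and catenins, 6 were tested in vivo, with 1 called higher in RFP+ cells and 2 higher in GFP+ cells, against 6.21% and 3.88% of all genes. DESeq2 called 3 of 9 in each direction, against 12.6% and 5.48%. Cdh6, a cadherin of developing kidney and neural crest, averaged 0.47 ± 0.65 CPM over the GFP+ libraries (SD, n = 5) against 58.2 ± 11.3 CPM over the RFP+ libraries (SD, n = 4; log2 fold change 6.58, adjusted p = 0.0204 in edgeR). Ctnna1 and Ctnnd1, which encode the alpha and delta catenins that bind cadherins, were higher in GFP+ cells (log2 fold changes -1.36 and -1.55 in vivo, -0.99 and -0.27 in vitro). In vitro, 1 of 7 was called higher in RFP+ cells (Ctnnb1, 0.28) and 6 higher in GFP+ cells, Jup and Cdh6 included (-2.89 and -0.96), against 37.8% and 40.1% of all genes. The Cdh6 call therefore differed in sign between the sources.

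Of 10 fibronectin receptor subunits, 7 were tested in vivo and 1 was called, Itga8, higher in RFP+ cells like 6.21% of all genes (log2 fold change 7.33, adjusted p = 0.0119 in edgeR). In vitro, 4 of 6 were called higher in RFP+ cells, with Itga9 at 1.74 and Itga8 at 0.98, and 2 higher in GFP+ cells, Itgav and Itgb1, against 37.8% and 40.1% of all genes. Of 17 other genes of mesenchymal matrix and contraction, 12 were tested in vivo. The 4 called, Sparc, Cd44, Acta2 and Tagln, were all higher in GFP+ cells, where 3.88% of all genes were, with log2 fold changes of -1.53, -2.89, -3.52 and -1.63. Acta2 and Tagln encode smooth muscle proteins that early heart muscle also expresses. In vitro, 4 of 11 were called higher in RFP+ cells (Col5a1, Col5a2, Mmp2 and Mmp14) and 7 higher in GFP+ cells, among them Sparc, Cd44, Acta2 and Tagln (-1.92, -0.42, -2.44 and -0.90), against the same shares of all genes as for the receptors.

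Of 10 other filament genes, 6 were tested in vivo and 1, Krt8, was called, higher in GFP+ cells like 3.88% of all genes. None was called higher in RFP+ cells, where 6.21% of all genes were. In vitro, 2 of 9 were called higher in RFP+ cells (Lmnb1 and Lmnb2) and 7 higher in GFP+ cells, Des at -2.46 among them. Of 7 bHLH partners and inhibitors of Twist, 6 were tested in vivo and 1 was called in each direction, against 6.21% and 3.88% of all genes. Id3, which sequesters E proteins, was higher in RFP+ cells (1.68, adjusted p = 0.0303 in edgeR) and Id2 higher in GFP+ cells (log2 fold changes -1.16 and -0.77 in vivo and in vitro). In vitro, 4 of 6 were called higher in RFP+ cells, the E protein genes Tcf3, Tcf4 and Tcf12 at 0.92, 0.88 and 0.57, and Id3 at 0.57. Of 13 corepressor genes, 0 were called in vivo by edgeR, which called 10.1% of all genes, with 1, Hdac1, at an unadjusted p under 0.05. DESeq2 also called 0, against 12.6% of all genes higher in RFP+ cells and 5.48% higher in GFP+ cells. In vitro, 8 were higher in RFP+ cells, Prmt5, the one of highest mean level, at 0.55, Ctbp1 at 0.99 and Ezh2 at 0.90, and 1, Suz12, higher in GFP+ cells.

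Of 21 genes known as inducers or upstream factors, 13 were tested in vivo, with 1 called in each direction by edgeR, against 6.21% and 3.88% of all genes. DESeq2 called 5 of 15 higher in RFP+ cells and 1 higher in GFP+ cells, against 12.6% and 5.48%. Foxc2, a forkhead factor of mesenchyme, had no reads in GFP+ cells in vivo and averaged 19.7 ± 8.35 CPM over the RFP+ libraries (SD, n = 4; adjusted p = 0.0122 in edgeR), and Tgfb2, a ligand that drives cushion formation, was higher in GFP+ cells (log2 fold change -1.81, adjusted p = 0.0564 in edgeR). In vitro, 10 of 15 were called higher in RFP+ cells, with Foxc2 at 5.56, Sox9 at 2.91, Foxc1 at 2.22 and T, which encodes Brachyury, at 1.68, and 5 higher in GFP+ cells, with Tgfb2 at -1.56 and Prrx1 at -1.12. The in vitro counts of the filament, bHLH, corepressor and inducer genes stand against 37.8% and 40.1% of all genes called higher in RFP+ and in GFP+ cells. Of the genes named from these lists, those called in both sources and Prmt5 were named by rule, and the others were chosen after their values were seen.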

How the data were processed

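RNA from pools of 10 sorted cells was measured by RNA-seq in 93 libraries. Per the labels and the study's methods, the authors made full-length cDNA, used Trimmomatic 0.36 to trim reads to a quality of at least 35 and a length of at least 36 bases, HISAT2 2.0.4 to align them to mm10, and featureCounts 1.5.2 to count them. The deposited values are whole counts per gene, not normalized. The annotation and the strand setting used in counting are not given in the sources used here. There were no molecular identifiers, so every interval from counts covers counting error only.

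The members and the other gene lists were chosen with earlier results of these data known. Every member is named. From each other list the rule named the genes called in both sources or, with none, the one of highest mean CPM. Other genes named from these lists were chosen after their values were seen. Groups came from the sample labels, and all libraries were used.

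Counts were tested in R 4.3.3 with edgeR 4.0.16: TMM, filterByExpr (minimum count 10, minimum total 15, minimum proportion 0.7), the quasi-likelihood F-test and Benjamini-Hochberg adjustment over all genes tested, in one fit for each pair of groups. The standard error is the log2 fold change over the root of F. CPM is counts per 1000000 reads with TMM factors over all libraries. Permutation tests were two-sided (log2 CPM, prior count 2), exact in vivo and with 100000 resamples in vitro, for 10 genes in each source and without adjustment. Exon lengths and overlaps came from GENCODE M21 on GRCm38, the assembly of mm10, and promoters from RefSeq, where 5 members (Snai1, Twist1, Twist2, Vim and Zeb2) had an entry. The scripts were tested on simulated data.

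Alternatives were DESeq2 1.42.0, RLE size factors, no filter, a threshold of 0.05, plate row as a covariate, each in vivo library left out, well C9 left out, near-identical wells summed, one interaction fit and a prior count of 0.5. Chosen after seeing the data were adjusted deviances in the quasi-likelihood fit and, for the difference between sources, the fits without each in vivo library, without C9 and with wells summed, and the in vivo cadherin ratio and the place of Vim against the median without each in vivo library.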

Additional observations from a re-analysis of the deposited data

Results flagged for a closer look

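In 19 groups of 4 or 5 in vivo libraries, 4 members had one library apart from the others by Dixon's test, which by chance marks about 1 group in 20. Vim was at 402.6 CPM in the in vivo GFP+ library A12, with the other 4 between 36.4 and 125 CPM. Fn1 was at 1169 CPM in the in vivo RFP+ library H11, with the others between 501 and 611 CPM. Cdh11 was at 7.79 CPM in the in vivo GFP+ library B12, with the others between 0 and 1.40 CPM. Zeb1 was at 27.0 CPM in the in vivo RFP+ library F12, with the others between 48.7 and 50.6 CPM, and F12 was also the RFP+ library with the highest Cdh2 (53.2 CPM) and the highest summed level of 5 blood markers (1153 CPM against at most 1.41 CPM in the other RFP+ libraries). The part of other cells in these values was not tested.

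The effect of population on Cdh2 differed between the sources. Its log2 fold change, RFP+ over GFP+, was -3.46 in vivo and 1.21 in vitro, a difference of 4.67 (standard error 0.62, adjusted p = 0.0180 over 8182 genes). The in vivo groups did not overlap, as for 17.3% of all genes tested in vivo, and every in vivo GFP+ library was above every in vivo RFP+ library.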

How the results depend on the processing

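The number of genes called in vivo, 858, was 1945 with DESeq2, 2000 without a filter and 1765 with adjusted deviances. In vitro, 7747 became 13109 without a filter, where more genes were tested. The 430 genes with a difference between sources became 247 at 0.05 and 6889 with one interaction fit, which gives all groups one spread. Leaving out each in vivo library gave 72 to 556 such genes (72 without G11, 157 without H11 and 221 without F12), 613 to 1044 genes in vivo, 8488 to 8608 for GFP+ and 4076 to 4426 for RFP+ cells between sources. The cause of the other changes was not tested.

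No member changed sign among calls. In vivo, Fn1 was called with adjusted deviances, without a filter and without C12 (adjusted p = 0.0255, 0.0503 and 0.0141), and Zeb2 with DESeq2, adjusted deviances and without D12 (0.0139, 0.0802 and 0.0985). Snai1, under the filter, was called by DESeq2 (adjusted p = 0.00215) but not by edgeR without a filter (0.171), and Twist2 the other way (0.199 and 0.0818). The Cdh2 difference between sources kept its call in all alternatives, with adjusted p of 0.0310 to 0.0783 when one in vivo library was left out. The Cdh11 difference was called without B12 (adjusted p = 0.0525), and those of Cdh11, Vim, Snai2, Zeb1 and Zeb2 with the interaction fit. Between sources, the Vim and Snai1 calls in GFP+ cells were lost with RLE size factors, Vim also with DESeq2 (0.103), Snai1 also without B12 or C12 (adjusted p of 0.10 for both). Plate row, C9 and summed wells changed no member's call. No paired analysis was possible because wells of different groups share no replicate number. Few reads limit Snai1, Twist1, Twist2 and Cdh11 in in vivo GFP+ cells most.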
